A study of Mus musculus with 10 samples.

Results

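The HOX genes and their TALE cofactors were read in somatic cells of the fetal mouse ovary, from embryos with or without vitamin C. Members were all rows of the deposited expression table whose symbol is a Hoxa, Hoxb, Hoxc or Hoxd gene with a paralogue number, or a Meis, Pbx or Pknox gene. The rule found 38 of 13578 genes, of which 29 were HOX genes (9 of cluster A, 8 of B, 6 of C and 6 of D) and 9 were TALE cofactors of the MEIS, PBX and PKNOX families. The reference annotation lists 39 HOX genes, and 10, at the anterior and posterior ends of the clusters, had no row under their symbols and were not analysed here.

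HOX genes encode homeodomain transcription factors that are ordered along their clusters as they are deployed along the body axis, so that low paralogue numbers mark anterior and high numbers posterior positions. PBX, MEIS and PKNOX proteins are homeodomain factors of the TALE class (named for a 3 amino acid loop extension) that bind DNA together with HOX proteins and sharpen their choice of sites. In the urogenital ridge, the paralogue group 9, 10 and 11 genes take part in patterning of the kidney and reproductive tract.

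RNA came from sorted Oct4-negative cells of the gonads of single female embryos at embryonic day 13.5. All 10 embryos were Gulo-/- on a C57BL/6 background, a genotype that lacks the last enzyme of vitamin C synthesis and so depends on the diet. In 5 of them vitamin C had been withdrawn early in gestation, and in the other 5 it had been supplied at physiological levels. There was no embryo that makes its own vitamin C, so both groups share the deletion, and the sort removes Oct4-positive germ cells but does not select a somatic cell type. Values are rlog values, a log2 scale on which weakly expressed genes are drawn towards their mean, and each difference below is the withdrawn minus the supplied mean on that scale.

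Sample medians lay between 9.12 and 9.14, and the read depth is unknown because rlog values do not keep it. All 12 markers of pregranulosa cells had a row, and 4 of 8 germ cell markers had one. These were Kit (9.74 in withdrawn, 9.84 in supplied embryos), which somatic cells also express, Tdrd1 (5.77 in withdrawn, 5.96 in supplied embryos), Nanos3 (4.43 in withdrawn, 4.40 in supplied embryos) and Tfap2c (4.69 in withdrawn, 4.63 in supplied embryos, mean rlog), while Pou5f1, Dazl, Ddx4 and Dppa3 had no row. The gonadal stroma, mesonephros, endothelium and erythroid lists were also measured in full, so the fraction may hold several cell types. Supplied embryos 2 and 3, which share a number in their titles, stood apart in neural and glial markers, with list means of 9.11 and 8.44, while the other supplied embryos lay between 7.35 and 7.69 and the withdrawn embryos between 7.41 and 7.51. Only 3 of 13578 genes (0.0221%) passed limma with Benjamini-Hochberg adjustment at 0.05, and none of the 38 members did. In whole sorted fractions such as these, fewer cells of a type and less RNA per cell cannot be told apart.

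The positional code ran from paralogue 2 to paralogue 11. Its median level, corrected for exon length, was highest in the middle range, though not in every cluster and not without that correction. Levels were compared between genes as rlog minus the log2 of the exon length in kilobases, here called the level per length, whose median over the 12324 genes with a length was 7.06. Cluster C stood highest, with a median level per length of 8.26, followed by cluster D at 7.76, cluster A at 6.73 and cluster B at 6.66. By position, the median level per length was 6.95 for the low paralogues up to 4, 7.56 for paralogues 5 to 8 and 6.73 from paralogue 9 upwards. Paralogues 5 to 8 alone ranged from 5.90 to 8.90, and the ranges mix clusters of unequal level. With no length correction the order by position changed, and the low paralogues up to 4 were highest. The middle gene of that range was then Hoxc4 (rlog 9.45 in withdrawn, 9.27 in supplied embryos). For paralogues 5 to 8 it was Hoxd8 (9.01 in withdrawn, 8.99 in supplied), and from paralogue 9 upwards Hoxc9 (8.40 in withdrawn, 8.31 in supplied). Cluster D was highest at Hoxd10 (8.23), and cluster B was highest at Hoxb3 (7.40) and lowest at Hoxb5 (5.90). Hoxc8, a thoracic patterning gene, led all HOX genes at 8.95 ± 0.16 in withdrawn embryos and 8.84 ± 0.059 in supplied embryos (level per length, SD, n = 5 each), above 84.6% of genes.

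**Figure D1:**
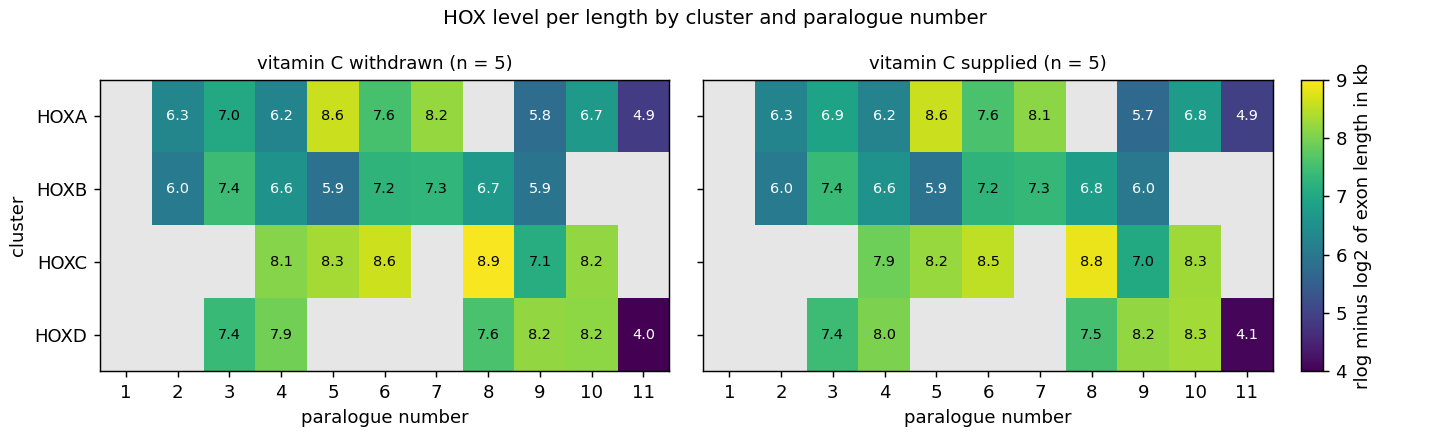
Level per length (rlog minus log2 of exon length in kilobases, printed and coloured) of each HOX gene, with clusters as rows and paralogue numbers as columns, as the mean of the withdrawn embryos (left) and of the supplied embryos (right), n = 5 each; grey squares have no gene or no row. In both groups the highest squares are Hoxc8, Hoxa5 and Hoxc6 in the middle of the code, and the lowest are Hoxa11 and Hoxd11 at its posterior end.

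In cluster A the leader was Hoxa5, a mid-axis gene, at a level per length of 8.60 in withdrawn embryos and 8.60 in supplied embryos, followed by Hoxa7 at 8.20 in withdrawn and 8.14 in supplied embryos. The lowest gene of the cluster was Hoxa11, at 4.88 in withdrawn and 4.95 in supplied embryos. Cluster B was flatter, and its 8 genes ranged from 5.90 for Hoxb5 to 7.40 for Hoxb3. The genes of cluster C lay above the median of all genes except Hoxc9, which was near it at 7.12 in withdrawn and 7.03 in supplied embryos. In cluster D the levels of Hoxd9 and Hoxd10 were close together and those of their neighbour Hoxd11, which patterns the kidney and limb, were lowest, at 4.0 in withdrawn and 4.09 in supplied embryos. Hoxd11 lay above 9.73% of genes and Hoxd10 above 73.5%, so in cluster D the level dropped between these adjacent genes. The other clusters did not share that step at the same place. Cluster A was low at Hoxa9 (5.75) and higher at Hoxa10 (6.73), and cluster C was still high at Hoxc10 (8.24), its last gene with a row. Hoxd11 and Hoxd10 share 455 and 104 exon bases with Gm28309 on the same strand.

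Neighbours in these orders were compared over the 10 embryos. Cluster A had 2 neighbouring pairs whose difference in level per length was within its SD (Hoxa3 with Hoxa10, Hoxa2 with Hoxa4). Cluster B had 4 such pairs, which left Hoxb3, Hoxb7 and Hoxb6 undistinguished in order, and likewise Hoxb2, Hoxb9 and Hoxb5. Cluster C had 2 (Hoxc5 with Hoxc10, Hoxc10 with Hoxc4), and cluster D had 1 (Hoxd10 with Hoxd9). Exon lengths carry an uncertainty of their own, since the exons of 18 of the 38 members overlap another annotated gene and no source used here says whether reads were counted by strand. Hoxd3 and Hoxd4 share 388 exon bases on 1 strand, and 2225 and 1154 with Gm28230, and Hoxc5 and Hoxc10 share 166, so the reads of these genes may have been split. With the longest transcript in place of all exons, the leaders were Hoxa7, Hoxb3, Hoxc8 and Hoxd10 (rank correlation with the order above 0.959), and with no length correction they were Hoxa7, Hoxb3, Hoxc8 and Hoxd4 (0.810).

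Among the cofactors the order of levels per length was the same in 10 of 10 embryos, and all 8 neighbouring differences exceeded their SD. In this order Meis1 (9.24 in withdrawn, 9.13 in supplied embryos) stood above Pbx2 (9.05 in withdrawn, 8.92 in supplied embryos) and Meis2 (8.34 in withdrawn, 8.28 in supplied embryos). Pbx3, Pknox1, Meis3 and Pknox2 came next, and Pbx4 was lowest at 4.20 in withdrawn and 4.25 in supplied embryos. On this scale the cofactor median was 7.81 and the HOX median 7.31, and Meis1 had a higher mean than any HOX gene. A gene's length is the same in every embryo, so the agreement between embryos does not test the lengths. With no length correction, Meis2 (rlog 11.93 in withdrawn, 11.87 in supplied embryos) stood above Pbx2 (10.91 in withdrawn, 10.78 in supplied). Pknox2 (9.69 in withdrawn, 9.63 in supplied) then stood above Meis3 (8.94 in withdrawn, 8.83 in supplied).

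Vitamin C withdrawal left the HOX genes spread on both sides of 0. Of the 29 HOX genes, 15 had a higher and 14 a lower mean in withdrawn embryos, with a median difference of 0.0043 and a range of -0.16 to 0.18. Over all genes, 50.2% were higher and 49.8% lower, and the median difference was 0.00021. At an unadjusted limma p under 0.05, 1 of 29 HOX genes was counted, against 5.30% of all genes, which is near that background. It was Hoxc4, and 0 HOX genes were lower in withdrawn embryos at that p, against 2.84% of all genes. No HOX gene separated the groups, against 0.810% of all genes, of which 0.464% were lower in every withdrawn embryo. With the stroma list mean as a covariate, 5 HOX genes were lower at an unadjusted limma p under 0.05 (Hoxb8 by -0.21, Hoxd11 by -0.28, Hoxd10 by -0.36, Hoxa10 by -0.44 and Hoxa11 by -0.30) and Hoxc4 (0.24) and Hoxc6 (0.17) were higher, while 3.49% of all genes had such a p in that fit. None of these passed adjustment. The stroma list mean itself differed between the groups (12.54 to 12.68 in withdrawn, 12.41 to 12.56 in supplied embryos), so that fit separates it poorly from treatment. With the mesonephros list mean as a covariate, the only members at such a p were Pbx2 and Pbx4, against 5.34% of all genes. In that fit the differences were 0.13 for Hoxc4, 0.016 for Hoxc6 and -0.069 for Hoxd10. The mesonephros list mean also tended lower in withdrawn embryos (8.75 to 8.93, against 8.84 to 8.95 in supplied embryos). That fit too therefore separates the list mean only in part from treatment. Without supplied embryos 2 and 3, 11 of 29 were higher and the HOX median was -0.015. The widest 95% interval of any member reached 0.36 from 0, so differences of that size or larger lay outside the interval of each member.

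The 9 TALE cofactors lay mostly above 0. Higher means in withdrawn embryos were found for 8 of them, with a median difference of 0.070 and a range of -0.051 to 0.13. At an unadjusted limma p under 0.05, 3 of 9 (Pbx2, Meis3 and Meis1) were higher in withdrawn embryos, against 2.45% of all genes. The groups did not overlap for Pbx2 and Meis3, with every withdrawn embryo higher, against 0.346% of all genes. The exact permutation test, two-sided with a smallest possible p of 0.00794, reached p under 0.05 for 4 of 38 members, Pbx2, Meis3, Hoxc4 and Pbx3, against 5.19% of all genes. Without supplied embryos 2 and 3, 8 of 9 cofactors were again higher, the median was 0.087, and 1 of 9 (Pbx2) had an unadjusted p under 0.05, as did 2 of 29 HOX genes (Hoxc4 and Hoxc9) and 4.65% of all genes. None passed adjustment over all genes, where the smallest limma adjusted p of any member was 0.865.

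**Figure D2:**
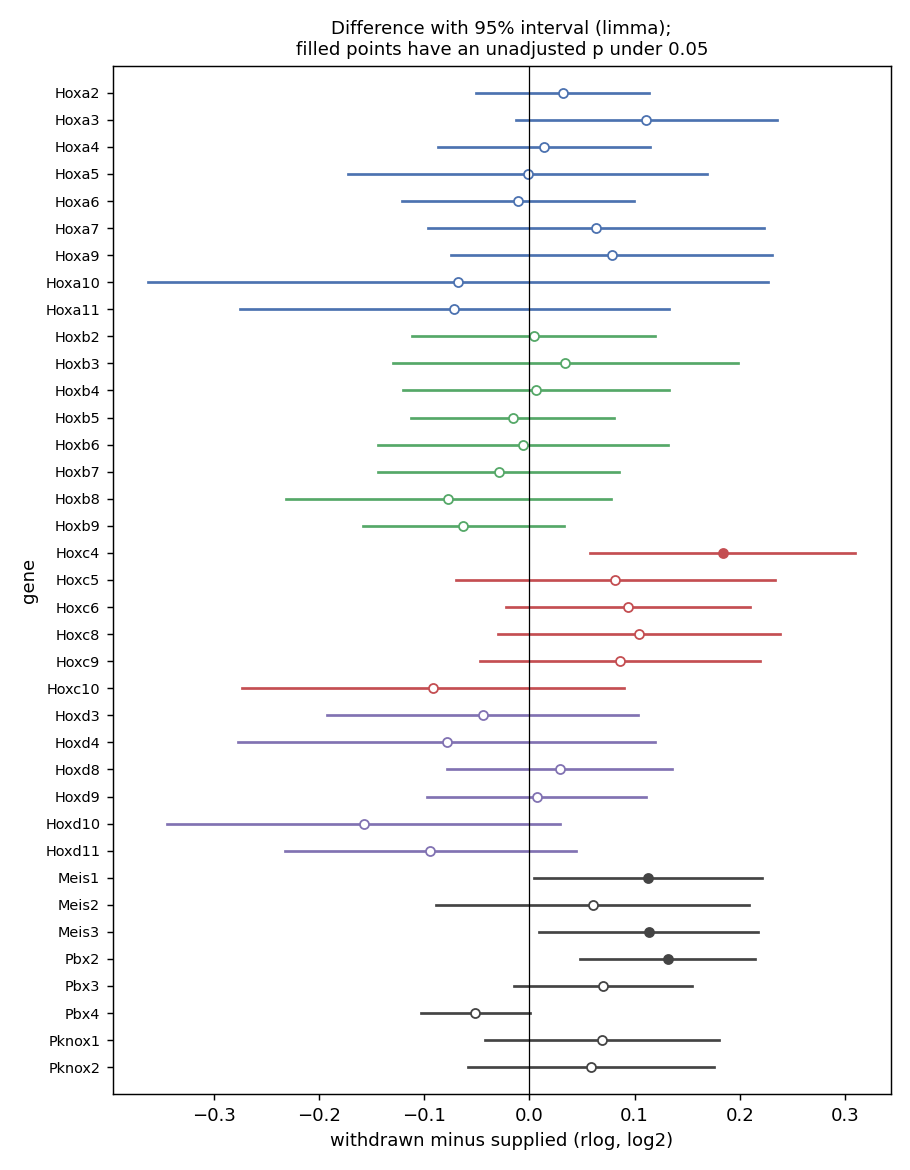
Withdrawn minus supplied difference (rlog, log2 scale) of the members described with 95% intervals from limma, ordered and coloured by cluster, with the cofactors at the bottom; filled points have an unadjusted p under 0.05. All cofactor points but Pbx4 lie right of 0, most with intervals that reach 0, while the HOX points lie on both sides.

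Pbx2, a widely expressed PBX factor, had rlog values of 10.90, 10.95, 10.85, 10.95 and 10.91 in withdrawn embryos, against 10.72, 10.78, 10.81, 10.81 and 10.79 in supplied embryos. Every withdrawn embryo was above every supplied one, by little. The difference was 0.13 ± 0.039 (SE), with a limma adjusted p of 0.865 and an exact permutation p of 0.00794. Pbx2 shares 227 exon bases with Gpsm3 on the same strand, so its value may hold some of that gene's reads.

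Meis3, a MEIS factor known from hindbrain patterning in frog and zebrafish, had rlog values of 9.08, 9.0, 8.86, 8.86 and 8.91 in withdrawn embryos, against 8.84, 8.86, 8.83, 8.82 and 8.78 in supplied embryos. Withdrawn embryos 1 and 2 were high, and the groups were kept apart only past the second decimal. The difference was 0.11 ± 0.049 (SE), with a limma adjusted p of 0.928 and an exact permutation p of 0.00794. Meis1, known for its role in blood stem cells, had 12.61, 12.68, 12.64, 12.76 and 12.52 in withdrawn embryos, against 12.57, 12.40, 12.58, 12.56 and 12.53 in supplied embryos. Its groups overlapped, through withdrawn embryo 5, and supplied embryo 2 was low. The difference was 0.11 ± 0.051 (SE), with a limma adjusted p of 0.931 and an exact permutation p of 0.0635. Meis1 shares 1029 exon bases with Gm37818 on the same strand and 896 with Gm16140 on the opposite strand.

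Pbx3, a further PBX factor, had 10.42, 10.44, 10.52, 10.44 and 10.48 in withdrawn embryos, against 10.44, 10.34, 10.42, 10.36 and 10.38 in supplied embryos. The groups overlapped, with withdrawn embryos 1 and 4 no higher than the highest supplied embryo, and the difference was 0.070 ± 0.040 (SE, limma adjusted p = 0.960). Pbx4, whose mouse gene is known mainly from the testis, had 5.30, 5.33, 5.37, 5.38 and 5.34 in withdrawn embryos, against 5.43, 5.44, 5.37, 5.38 and 5.37 in supplied embryos. Supplied embryos 1 and 2 were above all others, the rest overlapped, and it was the only cofactor with a lower mean in withdrawn embryos, by -0.051 ± 0.025 (SE, limma adjusted p = 0.931).

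Meis2, a factor of limb and craniofacial patterning, had 11.80, 12.08, 11.83, 12.12 and 11.80 in withdrawn embryos, against 11.85, 11.86, 11.87, 12.03 and 11.72 in supplied embryos. The groups overlapped widely, with a difference of 0.060 ± 0.070 (SE, limma adjusted p = 0.991). Pknox1, which pairs with PBX proteins and stabilises them, had 10.29, 10.57, 10.41, 10.39 and 10.51 in withdrawn embryos, against 10.35, 10.33, 10.46, 10.34 and 10.34 in supplied embryos. The lowest embryo of all was a withdrawn one, and the difference was 0.069 ± 0.053 (SE, limma adjusted p = 0.978). Pknox2, its close relative, had 9.58, 9.67, 9.72, 9.71 and 9.77 in withdrawn embryos, against 9.46, 9.76, 9.67, 9.58 and 9.68 in supplied embryos. Its groups also overlapped, with a difference of 0.059 ± 0.055 (SE, limma adjusted p = 0.989).

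**Figure D3:**
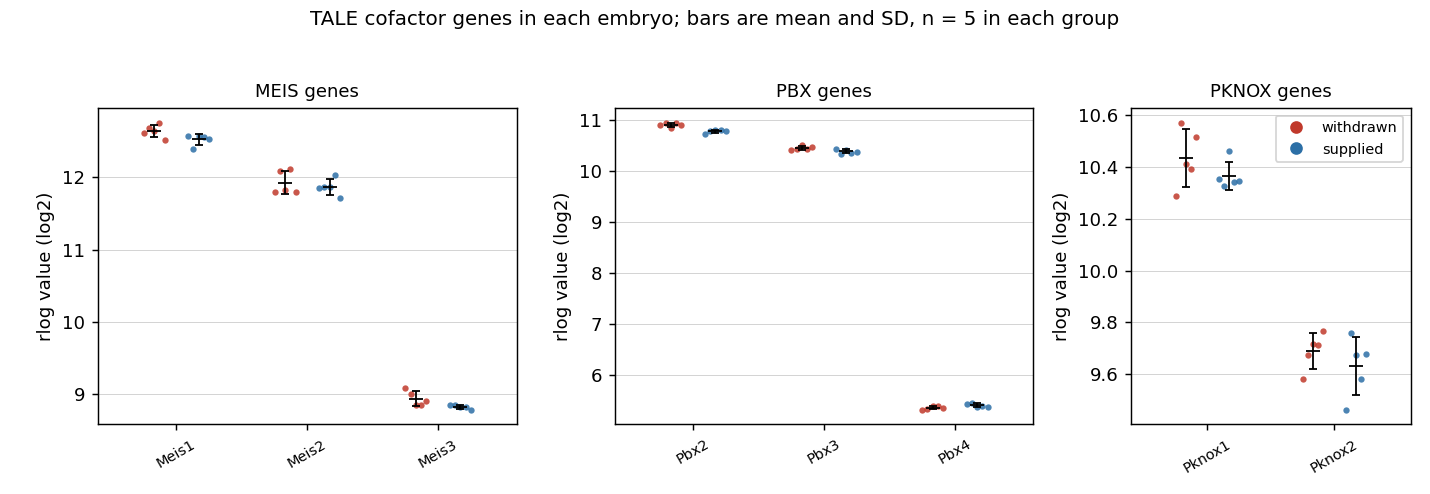
rlog values (log2 scale) of the TALE cofactors described, 1 panel for each family, with a point per embryo, withdrawn left and supplied right (n = 5 each), and bars for the mean and SD. Each axis has its own range; the differences between the groups are small beside the differences between genes.

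Marker lists of other cell types were set beside the cofactors, and no marker in them passed limma with adjustment. Of 11 stroma markers, 10 had a higher mean in withdrawn embryos, with a median difference of 0.094 and 4 at an unadjusted p under 0.05, among them Dcn (0.24) and Col3a1 (0.19). The mean of the stroma list lay between 12.54 and 12.68 in withdrawn embryos and between 12.41 and 12.56 in supplied embryos. Of 12 mesonephros and duct markers, 11 were lower, with a median difference of -0.078 and 1 at that p, and their mean lay between 8.75 and 8.93 in withdrawn embryos and between 8.84 and 8.95 in supplied embryos. Among endothelial markers 6 of 7 were lower, with a median of -0.058, and the 1 at that p, Eng, was lower (-0.39). Among pregranulosa markers 7 of 12 were lower, with a median of -0.030, but the 1 at that p, Irx5, was higher (0.15). All 6 measured neural and glial markers were lower, with a median of -0.23, led by Chgb (-2.10), and the list mean was high in supplied embryos 2 and 3. Macrophage markers were lower in 6 of 7 cases (median -0.031, Lyz2 -0.30), erythroid markers in 5 of 7 (median -0.032) and surface epithelium markers in 4 of 6 (median -0.030), where Krt7 (-0.23) was lower in every withdrawn embryo. Of the 4 measured germ cell markers, 2 were lower (median -0.034), and Tdrd1 (-0.20, limma adjusted p = 0.167) was the 1 at an unadjusted p under 0.05. With the stroma list mean as a covariate, the difference of Meis1 was 0.0061, Meis2 -0.070, Pknox1 0.032, Pbx4 -0.037, Pbx3 0.060, Meis3 0.085, Pbx2 0.12 and Pknox2 0.18, and the cofactor median was 0.032. With the mesonephros list mean as a covariate the cofactor median was 0.10.

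Within the HOX genes, cluster C stood mostly above 0 and cluster D mostly below it. The median differences were 0.014 for cluster A, -0.011 for cluster B, 0.090 for cluster C and -0.061 for cluster D. By position they were 0.014 up to paralogue 4, -0.0016 for paralogues 5 to 8 and -0.068 from paralogue 9 upwards. Of the 6 genes of cluster C, 5 were higher in withdrawn embryos, and Hoxc10, at its posterior end, was lower. None of these differences passed adjustment, and clusters share libraries, so the medians are descriptions.

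Hoxc4, a cervical patterning gene, had rlog values of 9.49, 9.39, 9.50, 9.55 and 9.31 in withdrawn embryos, against 9.17, 9.37, 9.11, 9.34 and 9.33 in supplied embryos. Withdrawn embryo 5 fell among the supplied embryos and the other 4 lay above all of them. The difference of 0.18 ± 0.060 (SE) was the largest among members, with a limma adjusted p of 0.900 and an exact permutation p of 0.0397. Hoxc6, which acts at thoracic levels, had 9.82, 9.82, 10.01, 9.96 and 9.79 in withdrawn embryos, against 9.78, 9.92, 9.68, 9.76 and 9.81 in supplied embryos. The groups overlapped, with a difference of 0.094 ± 0.055 (SE, limma adjusted p = 0.961). Hoxc8 had 10.49, 10.47, 10.39, 10.67 and 10.23 in withdrawn embryos, against 10.38, 10.38, 10.33, 10.25 and 10.39 in supplied embryos. Its highest and its lowest embryo were both withdrawn ones, and the difference was 0.10 ± 0.064 (SE, limma adjusted p = 0.962).

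Hoxd10, a posterior gene of lumbar patterning, had 8.84, 9.28, 8.98, 8.88 and 9.08 in withdrawn embryos, against 9.20, 8.96, 9.27, 9.42 and 9.0 in supplied embryos. The groups overlapped across most of their range, and the difference of -0.16 ± 0.088 (SE) had a limma adjusted p of 0.956. Hoxd11 had 5.99, 6.26, 6.00, 6.11 and 6.01 in withdrawn embryos, against 6.30, 6.06, 6.14, 6.36 and 5.99 in supplied embryos, with a difference of -0.094 ± 0.066 (SE, limma adjusted p = 0.974). In both genes supplied embryo 4 was highest. Hoxb9, which with its paralogues patterns the thorax, had 7.29, 7.31, 7.28, 7.35 and 7.25 in withdrawn embryos, against 7.37, 7.36, 7.41, 7.45 and 7.21 in supplied embryos. All but supplied embryo 5 of the supplied group were above every withdrawn embryo, and the difference was -0.063 ± 0.045 (SE, limma adjusted p = 0.978). Hoxd9, of the same paralogue group, had 9.28, 9.20, 9.38, 9.30 and 9.30 in withdrawn embryos, against 9.40, 9.26, 9.18, 9.28 and 9.30 in supplied embryos. Its means were almost equal, with a difference of 0.0071 ± 0.049 (SE, limma adjusted p = 0.999).

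Hoxa3, a gene of pharyngeal patterning, had 9.65, 9.59, 9.62, 9.63 and 9.50 in withdrawn embryos, against 9.49, 9.37, 9.34, 9.66 and 9.57 in supplied embryos. The withdrawn embryos were tightly grouped inside the wider supplied range, and the difference was 0.11 ± 0.059 (SE, limma adjusted p = 0.956), but 0.024 without supplied embryos 2 and 3. Hoxa5 had 9.27, 9.56, 9.73, 9.56 and 9.41 in withdrawn embryos, against 9.37, 9.53, 9.33, 9.64 and 9.66 in supplied embryos. Its difference was -0.0016 ± 0.081 (SE, limma adjusted p = 0.999). Hoxa7 had 9.83, 9.87, 9.64, 9.87 and 9.42 in withdrawn embryos, against 9.74, 9.65, 9.59, 9.57 and 9.77 in supplied embryos, with a difference of 0.064 ± 0.076 (SE, limma adjusted p = 0.991). For both genes the withdrawn embryos spanned the whole supplied range. In cluster B, Hoxb3 had 9.34, 9.62, 9.54, 9.59 and 9.45 in withdrawn embryos, against 9.59, 9.18, 9.42, 9.67 and 9.51 in supplied embryos, with a difference of 0.034 ± 0.078 (SE, limma adjusted p = 0.995). Hoxb7 had 7.85, 7.98, 7.80, 7.96 and 8.02 in withdrawn embryos, against 7.86, 7.98, 8.10, 7.90 and 7.91 in supplied embryos, with a difference of -0.029 ± 0.054 (SE, limma adjusted p = 0.994). The groups overlapped for both. The other 17 members, all HOX genes, had differences between -0.092 (Hoxc10) and 0.086 (Hoxc9), each with overlapping groups.

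**Figure D4:**
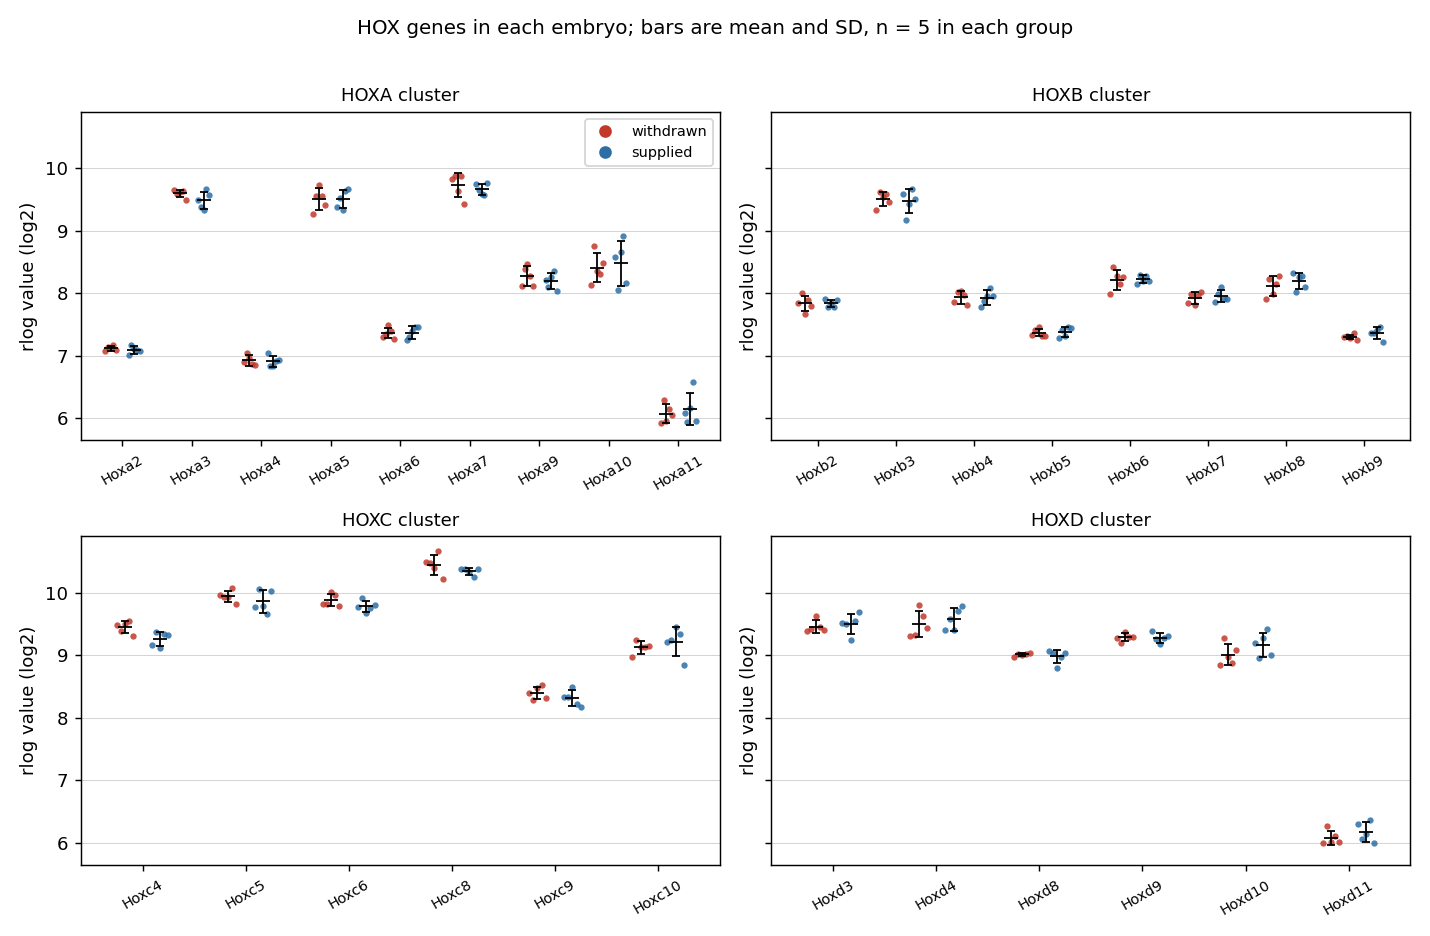
rlog values (log2 scale) of all 29 HOX genes, 1 panel for each cluster, with a point per embryo, withdrawn left and supplied right (n = 5 each), and bars for the mean and SD. No gene has groups that are fully apart, and the nearest are Hoxc4, with 4 of 5 withdrawn embryos above the supplied ones, and Hoxb9, with all withdrawn embryos below 4 of 5 supplied ones.

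The genes of paralogues 10 and 11 varied together between embryos, while those of paralogue 9 did so only in part. Each gene's deviations from its group means were correlated across the 10 embryos, as a description with no test, because the points share libraries. The median Pearson r was 0.12 over all 406 HOX pairs, 0.24 for the 94 pairs of the same cluster and 0.080 for the 312 pairs of different clusters. Pairs with the same paralogue number, which are the most alike in sequence, had a median r of 0.24. The 5 genes of paralogues 10 and 11 (Hoxa10, Hoxa11, Hoxc10, Hoxd10 and Hoxd11), a group chosen after their values were seen, had a median r of 0.81 over 10 pairs, from 0.58 to 0.98. Without supplied embryos 2 and 3 it was 0.871. The same genes against the paralogues up to 8 had a median r of 0.016, from -0.82 to 0.81. Hoxb8 and Hoxb3 varied with most of them. Hoxb8 had 0.81 with Hoxa10, 0.77 with Hoxd10, 0.66 with Hoxd11 and 0.63 with Hoxa11. Hoxb3 had 0.73 with Hoxa10, 0.69 with Hoxa11, 0.68 with Hoxd11 and 0.63 with Hoxd10. With Hoxc10 the values were lower, at 0.52 for Hoxb8 and 0.13 for Hoxb3. Over all pairs from paralogue 9 upwards in different clusters the median r was 0.58, from -0.42 to 0.98, and Hoxd9 with Hoxa10 and Hoxc9 with Hoxd10 each had -0.21.

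**Figure D5:**
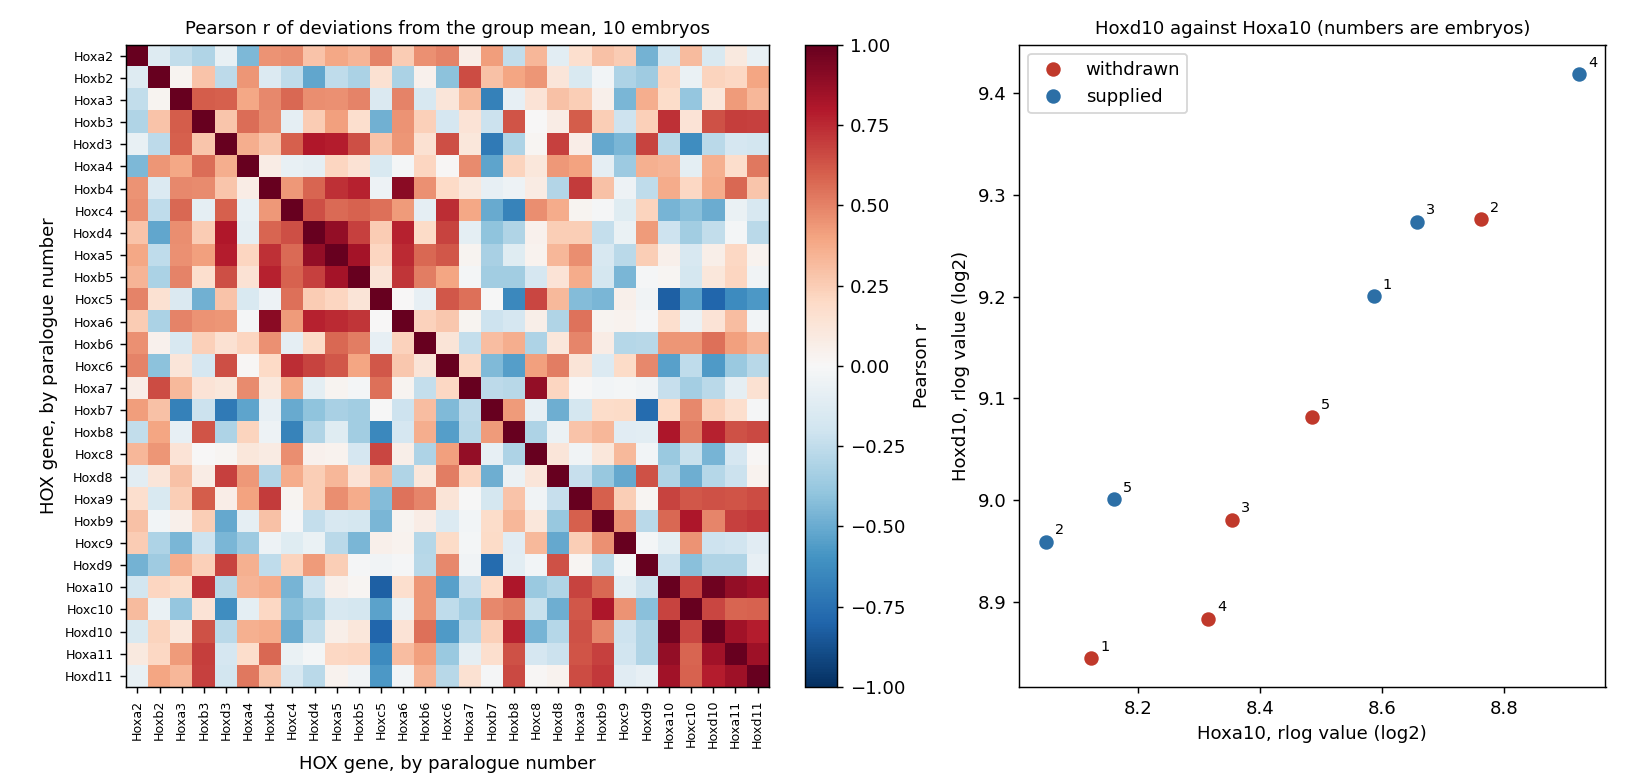
Left, Pearson correlations of deviations from group means across the 10 embryos for every pair of HOX genes, ordered by paralogue number, on a colour scale from -1 to 1; right, the rlog values (log2) of Hoxd10 against Hoxa10 in each embryo. The block of high values at the posterior end holds the genes of paralogues 10 and 11, and Hoxd10 and Hoxa10 climb together within both groups.

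Hoxa10 and Hoxd10, which lie on different chromosomes, were each the most alike to the other among 13577 genes. Their Pearson r was 0.976 and Spearman rho 0.976, and r was 0.962 without withdrawn embryo 2 and supplied embryo 4, the 2 farthest from the median of Hoxd10. Within the withdrawn embryos r was 0.977, and within the supplied embryos 0.996 (n = 5 each). For the other 27 HOX genes the most alike gene was not a HOX gene. Their best matches had r from 0.923 (Hoxa7 with Tgfbr3) to 0.989 (Hoxa2 with Zfp334). Hoxb5 with Camkv (0.980) and Hoxa4 with Rgs3 (0.977) were also above Hoxa10 with Hoxd10, so the size of r was not particular to this pair. The promoters of Hoxa10 and Hoxd10 are shown because these genes moved together, over 300 bases around the RefSeq start on GRCm38.p6. CG dinucleotides are in capitals. Hoxa10 lies at chr6:52240805-52241104 on the minus strand and Hoxd10 at chr2:74691641-74691940 on the plus strand.
Hoxa10 promoter: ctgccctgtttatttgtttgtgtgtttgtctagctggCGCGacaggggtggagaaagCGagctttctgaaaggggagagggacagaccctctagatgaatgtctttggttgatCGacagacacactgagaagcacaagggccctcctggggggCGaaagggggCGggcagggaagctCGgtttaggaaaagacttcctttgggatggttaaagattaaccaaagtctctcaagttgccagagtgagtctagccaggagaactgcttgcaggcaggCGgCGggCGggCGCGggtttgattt
Hoxd10 promoter: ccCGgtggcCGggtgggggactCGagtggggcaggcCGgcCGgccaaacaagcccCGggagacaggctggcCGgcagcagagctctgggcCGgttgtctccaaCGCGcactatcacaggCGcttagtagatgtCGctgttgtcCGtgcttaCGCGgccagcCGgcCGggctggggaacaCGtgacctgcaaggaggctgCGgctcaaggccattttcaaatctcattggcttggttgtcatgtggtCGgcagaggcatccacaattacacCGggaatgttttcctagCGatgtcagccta
The Hoxa10 window holds 12 CG dinucleotides, more than 59.9% of all 27025 promoters in the table, and the Hoxd10 window holds 22, more than 76.7%. Over the 22 members with a promoter in the table the median was 14.5, against 7 in all promoters.

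The mean of the 5 genes of paralogues 10 and 11 was 7.57, 7.97, 7.68, 7.72 and 7.75 in withdrawn embryos, against 7.88, 7.65, 7.94, 8.13 and 7.59 in supplied embryos. Withdrawn embryo 2 and supplied embryo 4 were highest in their groups, and the groups overlapped. Its deviations had an r of 0.70 with the stroma list mean, 0.69 with the endothelium list mean and -0.60 with the pregranulosa list mean (n = 10), and the part of cell makeup in the shared variation was not tested. Other pairs of high likeness were Hoxa6 with Hoxb4 (Pearson r 0.899, rho 0.891), Hoxa7 with Hoxc8 (0.877, rho 0.867), Hoxa5 with Hoxd4 (0.876, rho 0.964), Hoxa11 with Hoxd11 (0.846, rho 0.915) and, within a cluster, Hoxa10 with Hoxa11 (0.878, rho 0.867). Without the 2 farthest embryos these were 0.815, 0.803, 0.767, 0.625 and 0.767 in Pearson r. Hoxd3 with Hoxd4 (0.797), which share exon bases, and Hoxd10 with Hoxd11 (0.787) were also alike within a cluster. Hoxc5 ran opposite to Hoxa10, with an r of -0.820 (rho -0.818), and -0.627 without supplied embryos 2 and 4, but r was -0.320 within the withdrawn embryos and -0.994 within the supplied embryos. Across all genes, Meis1 was most like Gprc5c (r = 0.947).

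Promoters were also read for 2 motifs of these factors on both strands, TGATTNAT, a composite site of PBX with HOX, and TGACAG, a site of MEIS and PKNOX. TGATTNAT was found in 1 of the 22 member promoters (4.55%), against 908 of 27025 promoters (3.36%). TGACAG was found in 2 of 22 (9.09%), Hoxa2 and Hoxa3, against 5212 of 27025 (19.3%). The promoter of Hoxa2, a hindbrain patterning gene, is shown because it held both, at chr6:52164782-52165081 on the minus strand of GRCm38.p6 (RefSeq), with the matches in capitals; the first is on the opposite strand.
Hoxa2 promoter: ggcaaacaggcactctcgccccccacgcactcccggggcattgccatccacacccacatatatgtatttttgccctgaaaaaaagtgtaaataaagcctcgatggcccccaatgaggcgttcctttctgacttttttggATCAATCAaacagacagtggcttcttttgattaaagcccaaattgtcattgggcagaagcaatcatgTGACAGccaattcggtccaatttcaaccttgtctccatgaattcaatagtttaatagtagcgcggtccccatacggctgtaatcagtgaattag
The matches begin at -111 and -44 from the RefSeq start, and a match of letters is a description and not a binding site.

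Other genes of the HOX system were counted from lists. Of 23 measured regulators of the clusters, which include the Polycomb and trithorax subunits that repress or maintain HOX genes, 14 were higher and 9 lower in withdrawn embryos, with a median difference of 0.011 and 0 at an unadjusted limma p under 0.05, against 5.30% of all genes. Those of smallest p were Nr6a1, a nuclear receptor of trunk development (0.095), and Bptf, a chromatin remodeller subunit (0.089). Of 12 genes that flank the clusters, 8 were higher, with a median of 0.028 and 0 at that p, and Atp5g3 (0.073) and Atf2 (0.056) had the smallest p. Of 6 other TALE homeobox genes, 4 were higher, with a median of 0.0077; Irx5, which acts in granulosa cells, was 0.15 higher and Tgif1, a repressor in TGF-beta signalling, was lower by -0.089. Of 17 partners and PBX interactors, 14 were higher with a median of 0.038, among them Pbxip1 (0.10), which binds PBX proteins, and Osr1 (0.13), a factor of intermediate mesoderm. None passed limma with adjustment. The 17 listed noncoding RNAs of the clusters had 0 rows.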

How the data were processed

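RNA was sequenced from sorted Oct4-negative gonadal somatic cells of 10 single embryos (2 ng of total RNA each). The deposited table, made by the authors, holds 1 rlog value per gene and embryo, on a log2 scale. The submitters' processing notes name build mm9 and the tools DESeq2 1.20.1, TopHat2 2.1.1 and Trim Galore 0.4.0. The annotation and strand setting of counting are not given in the sources used here. Read depth cannot be recovered, so counting intervals are left out, and shrinkage understates fold changes of weakly expressed genes. All 10 columns matched a sample title. The design text calls the embryos biological replicates, but no label gives litters, and p-values reflect only the spread among these 10.

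Groups followed the treatment labels. All 13578 genes (mean of at least 3, which removed 0) were fitted with limma 3.58.1 in R 4.3.3, withdrawn minus supplied, with a variance trend, no covariate and Benjamini-Hochberg adjustment over all genes at 0.05. Single members also had an exact permutation test, two-sided. The fit was tested on simulated data. Lengths were unions of exons of the GENCODE M21 annotation (GRCm38), and 12324 genes (90.8%) had one. Promoters were those of the RefSeq table, in which 22 members had an entry. The members and lists were chosen with earlier results of these data known. Members described by embryo were those at an unadjusted p under 0.05, the 3 HOX genes of smallest p in each direction, the 2 HOX genes of highest level per length in each cluster, and every cofactor, 21 in all, of which 1 is not reported here. In other lists the 2 of smallest p were named, or examples. Alternatives were another mean minimum, no trend, robust variance, centring, quantile normalization, a replicate block, averaging of shared title numbers, list means as covariates, other lengths, Spearman correlation, and leaving out each embryo. Leaving out supplied embryos 2 and 3 together was added after seeing the data.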

Additional observations from a re-analysis of the deposited data

Results flagged for a closer look

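Of 76 checks of a member within a group of 5 embryos, 3 found 1 embryo far from the others, and chance flags about 1 in 20 such groups. Hoxd3 was 9.63 in withdrawn embryo 3, against 9.38 to 9.45 in the other withdrawn embryos. Meis1 was 12.40 in supplied embryo 2, below 12.53 to 12.58 in the other supplied embryos. Pknox1 was 10.46 in supplied embryo 3, above 10.33 to 10.35 in the other supplied embryos.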

How the results depend on the processing

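No member passed adjustment in any of 21 settings. The number of all genes that passed was 3, and it was 1 with no variance trend, with quantile normalization or with averaging of embryos whose titles share a number, 5 with robust variance and 0 with the stroma list mean as covariate; leaving out 1 embryo gave 0 to 4, with 0 without withdrawn embryo 5 or supplied embryo 1 and 1 without withdrawn embryo 2 or 4. Members at an unadjusted p under 0.05 numbered 4, but 2 with the mesonephros list mean as covariate (against 5.34% of all genes) and 9 with the stroma list mean (against 3.49% of all genes), among them Hoxd11 (-0.28, limma adjusted p = 0.531, and 0.531 to 0.999 over settings). Leaving out 1 embryo gave 4 to 7, with 7 without withdrawn embryo 5 (against 5.69% of all genes) or supplied embryo 5 (against 5.66%). The cause was not tested.

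Of 21 members described by embryo, 15 kept their direction in all settings. With title numbers averaged, Hoxb7 was 0.00098, Hoxb3 -0.026 and Hoxd9 -0.0092. Without supplied embryos 2 and 3, Hoxb7 was 0.030, Hoxb3 -0.081 and Hoxd9 -0.037. With the mesonephros covariate, Hoxb7 was 0.023, Hoxd9 -0.015 and Hoxa7 -0.0066. With the stroma covariate, Hoxb3 was -0.15, Meis2 -0.070, Hoxa5 0.043 and Hoxa7 -0.048. Leaving out 1 embryo gave -0.058 to 0.058 for Hoxa5, -0.040 to 0.083 for Hoxb3, -0.053 to 0.0070 for Hoxb7 and -0.020 to 0.036 for Hoxd9.

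With the longest transcript the median levels were 7.08 for HOXA, 8.05 for HOXD and 8.91 for TALE, and with no length correction 8.23 for HOXA, 7.93 for HOXB, 9.60 for HOXC, 9.19 for HOXD and 10.42 for TALE. The median correlation within a cluster was 0.164 by Spearman, and that of paralogues 10 and 11 was 0.871 without supplied embryos 2 and 3. Leaving out 1 embryo gave 0.177 to 0.277 within clusters, 0.0176 to 0.135 between clusters, 0.728 to 0.848 for paralogues 10 and 11, and -0.144 to 0.195 for these with paralogues up to 8.

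Embryos with the same replicate number in the 2 groups showed no common tendency to deviate together (r from -0.364 to 0.172, positive only for replicate 1). The main fit used no pairing, though so few values cannot exclude one. Embryos 2 and 3 within each group share a title number, which this check does not address; with the replicate block 3 members had an unadjusted p under 0.05, against 4.46% of all genes, and 0 passed adjustment.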
